A study of Rattus norvegicus with 4 samples.

Results

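The genes described here are 6 genes of the cellular response to stress, nitric oxide and inflammation, namely Jun, Nos1, Cxcl12, Trpv3, Casp8 and Il1b, out of 474 genes with a gene identifier in a table of transcripts called differentially expressed after fluoxetine. They were taken by their symbols, with every listed transcript, which gave 8 of 830 transcripts. All 6 had been selected on their lower group means in the fluoxetine-exposed rats of these same samples, which 398 of the 830 listed transcripts (48%) shared, so the levels below describe the genes and no p-value is given for them. RNA-seq was performed on polyA RNA from the hippocampus of male Wistar rats killed at PND 128 (postnatal day 128), 2 samples per group, each a pool of tissue from 2 rats, so that variation between single rats cannot be seen. Fluoxetine-exposed rats had received the selective serotonin reuptake inhibitor fluoxetine at 12 mg/kg per day by gavage from PND 67 to 88, and vehicle-exposed rats had received 1% methylcellulose over the same days. Tissue was thus collected 40 days after the last dose.

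These genes act at different steps. Jun encodes c-Jun, a subunit of the AP-1 transcription factor that is induced within minutes by neuronal activity and stress. Nos1 encodes the neuronal nitric oxide synthase, which makes the diffusible messenger nitric oxide in scattered interneurons and at glutamatergic synapses. Cxcl12 encodes a chemokine that is made by vascular, meningeal and some neuronal cells and guides migrating cells through its receptor CXCR4, whereas Il1b encodes interleukin-1β, a cytokine released by activated microglia and macrophages. Casp8 encodes the initiator caspase of death receptor signalling, and Trpv3 encodes a warmth-activated cation channel best known from skin.

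To show what is known of the regulatory sequence in front of these genes, the 250 bases before the annotated start were taken from RefSeq (build GRCr8, a later build than the rn4 of the expression data). Of the 6 genes, 4 matched, and Jun and Casp8 did not. The windows are written 5′ to 3′ on the strand of the gene and lie at chr12:44371838-44372087 (minus strand) for Nos1, chr4:152060531-152060780 (plus strand) for Cxcl12, chr10:58381804-58382053 (plus strand) for Trpv3 and chr3:137036582-137036831 (minus strand) for Il1b. Capitals mark the motifs TGANTCA (the AP-1 element, to which c-Jun dimers bind), TGACGTCA (the cAMP response element) and GGGCGG (the GC box), searched on both strands, and no marked motifs overlap.
Nos1: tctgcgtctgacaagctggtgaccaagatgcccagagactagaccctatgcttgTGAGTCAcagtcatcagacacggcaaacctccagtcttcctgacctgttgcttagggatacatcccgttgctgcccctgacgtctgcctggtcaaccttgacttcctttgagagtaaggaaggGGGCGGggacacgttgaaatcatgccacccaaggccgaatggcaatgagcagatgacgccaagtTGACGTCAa
Cxcl12: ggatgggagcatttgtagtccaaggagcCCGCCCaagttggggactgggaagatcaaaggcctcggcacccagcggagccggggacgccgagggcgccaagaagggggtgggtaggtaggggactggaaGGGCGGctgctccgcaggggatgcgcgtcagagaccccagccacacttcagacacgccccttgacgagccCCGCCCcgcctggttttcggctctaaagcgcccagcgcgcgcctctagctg
Trpv3: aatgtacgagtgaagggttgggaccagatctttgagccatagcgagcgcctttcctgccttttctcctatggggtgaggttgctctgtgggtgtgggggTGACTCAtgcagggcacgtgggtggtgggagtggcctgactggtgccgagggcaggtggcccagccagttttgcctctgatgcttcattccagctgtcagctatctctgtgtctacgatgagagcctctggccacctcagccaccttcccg
Il1b: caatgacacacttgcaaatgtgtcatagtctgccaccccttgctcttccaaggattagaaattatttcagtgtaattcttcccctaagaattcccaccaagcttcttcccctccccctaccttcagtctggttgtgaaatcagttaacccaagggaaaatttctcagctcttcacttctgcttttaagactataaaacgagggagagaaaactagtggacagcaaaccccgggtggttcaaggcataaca

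Nos1 and Trpv3 each held 1 AP-1 element, which was present in 6.34% of all 33469 windows of this length. Nos1 also held the cAMP response element (1.59% of windows), which ended just before the start, and 1 GC box (30.5% of windows). Cxcl12 held 3 GC boxes and a GC content of 67.6%, against a median of 51.2% over all windows. Il1b held none of these letter strings and had a GC content of 44%. Such matches describe the sequence and do not show binding. The window shown for Nos1 lies inside the annotated span of the gene.

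The expression table was deposited with the reads counted in the exons of each transcript. The library totals behind it were between 12512592 and 14080370 reads per sample, and the reads summed over the listed transcripts came to 1.03 to 1.17% of them, with reads that several transcripts share counted more than once. Levels are given as reads, as NE (normalized expression) or as normalized reads. NE is the authors' read density per transcript length and library size, which alone allows genes to be compared with each other. Normalized reads were scaled by TMM, the trimmed mean of M values, over the listed transcripts, to compare samples. TMM takes most transcripts as unchanged, but all listed ones had been selected as changed, so it can shift the difference between groups. The log2 fold changes and the levels in normalized reads carry this limit. Of 9 markers of hippocampal neurons, Wfs1 and Pou3f1, markers of CA1 pyramidal cells, were listed, and the other 7 were not analysed here. Wfs1 had an NE of 0.802 and 1.83 in fluoxetine samples 1 and 2 and of 0.702 and 1.01 in vehicle samples 1 and 2, and Pou3f1 had 0.231 and 0.639 against 0.216 and 0.27. Fluoxetine sample 2 thus stood apart in both markers. Without it, the log2 fold changes given below were -0.95 for Jun, -1.97 for Nos1 and -0.96 for Cxcl12. Leaving out a sample removes more than its neuron content, so the part of neuron content in these values was not tested. Over the whole table, the quasi-likelihood test of edgeR, adjusted after Benjamini and Hochberg, called 0 of 830 transcripts at 0.05 (0%) and 196 without adjustment, and DESeq2 called 0 and 10. All 830 had passed the authors' selection on this contrast in these samples, so the adjusted counts give no error rate over all genes.

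By NE, the 6 genes spanned a wide range of levels. Cxcl12 (0.909 on average over the 4 samples for its longer transcript) and Jun (0.457) lay above 96.4% and 94% of the listed transcripts. Their order was not the same in every sample, since Jun was slightly above Cxcl12 in vehicle sample 1 (0.667 against 0.652) and below it in the other samples. Nos1 followed at 0.0255, Trpv3 at 0.00514, and Il1b and Casp8 came last at 0.00116 and 0.000558. Il1b and Casp8 rested on 6 reads each over the 4 samples, too few to order them. In bulk tissue, fewer cells of a type and less RNA per cell cannot be told apart.

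**Figure D1:**
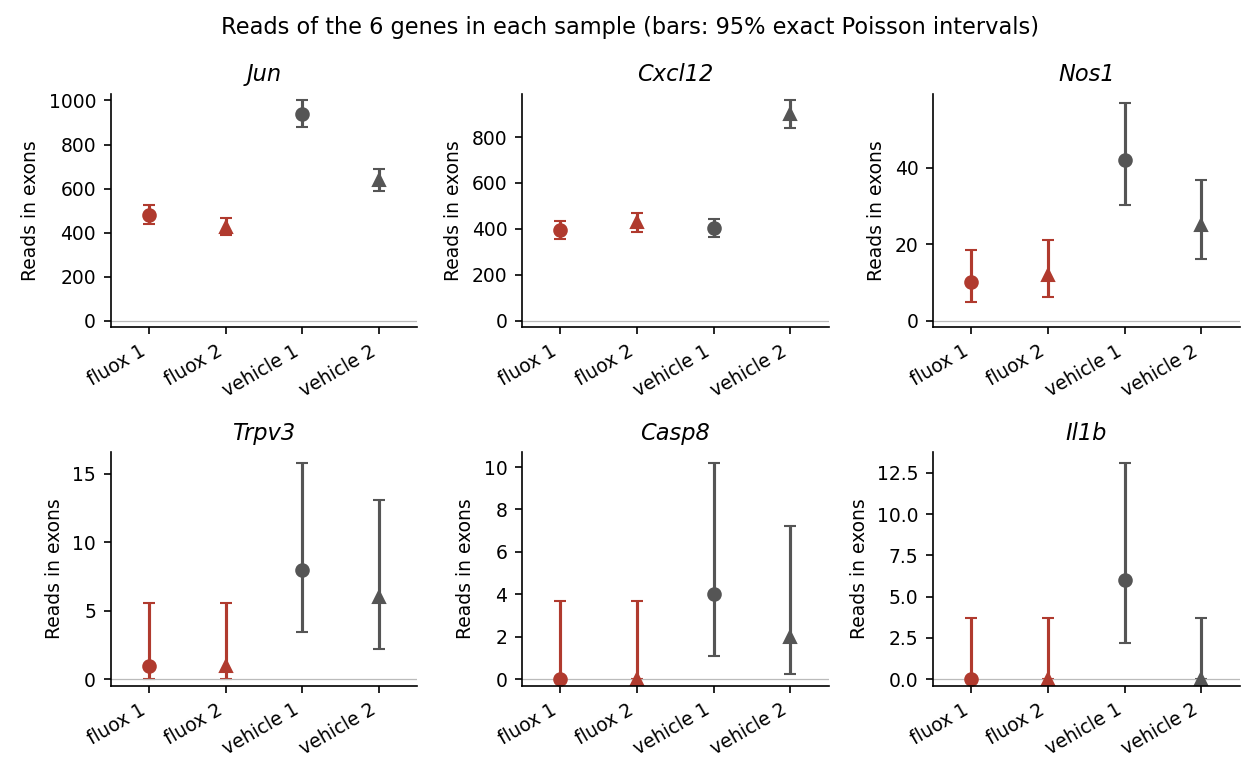
Reads in exons (y axis, linear, a separate scale per gene) of the 6 genes in fluoxetine samples 1 and 2 (red) and vehicle samples 1 and 2 (grey), with bars for exact 95% Poisson intervals that cover counting error only. For Cxcl12 only vehicle sample 2 stands apart, with 899 reads against 394 to 428 in the other samples, and for Il1b all 6 reads lie in vehicle sample 1.

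Jun, the transcription factor subunit, was the best-read of the 6 genes, with 2483 reads over the 4 samples. Its listed transcript (ENSRNOT00000011731) is a single exon of 1005 bases at chr5:115359397-115360401 of rn4 on the minus strand. Fluoxetine samples 1 and 2 had 481 and 426 reads (NE of 0.340 and 0.314), and vehicle samples 1 and 2 had 939 and 637 reads (NE of 0.667 and 0.507). Both fluoxetine samples thus lay below both vehicle samples, on either scale. At the library totals the ratio of fluoxetine sample 1 to sample 2 was 1.08 (exact 95% interval 0.949 to 1.24), which counting error can give, but in normalized reads it was 1.26 (1.1 to 1.44), which is more. Vehicle sample 1 exceeded vehicle sample 2 by 1.32-fold (1.19 to 1.46) at the library totals and by 1.49-fold (1.35 to 1.65) in normalized reads. Between the groups, the pooled reads of vehicle exceeded those of fluoxetine by 1.81-fold (1.66 to 1.96) and 1.97-fold (1.82 to 2.15) on these scales. These ratios were larger than those between the samples within either group. Jun had been selected on this contrast in these samples, so nothing is read from that order. The intervals of these ratios treat each read as an independent count, so they cover counting error only and leave out the spread between pools. Reads carry no molecular identifiers, so copies of the same molecule cannot be told apart and even the counting error may be larger. In normalized reads Jun stood at 429 ± 69.4 in fluoxetine and 843 ± 235 in vehicle (SD, n = 2 each), and edgeR gave -0.97 as the log2 fold change (standard error 0.47). Without vehicle sample 1 it was -0.66.

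Of 27 genes of the AP-1, JNK and immediate early group, 1 (Jun) had a listed transcript, and the other 26 were not analysed here, among them its dimer partners of the Fos family. No listed gene of the heat shock group (0 of 10) was found either. The genes whose pattern over the 4 samples was most like that of Jun, by the root mean square difference of centred log2 normalized reads among 407 transcripts with at least 20 normalized reads, were ENSRNOG00000040290 (0.08), Adcy1, a calcium-stimulated adenylate cyclase (0.09), and Mkx, a homeobox gene (0.10). Adcy1 (AK137002) had 5117 and 4673 normalized reads in fluoxetine and 10829 and 7156 in vehicle, with vehicle sample 1 highest as for Jun. The transcripts compared in this way, also for Nos1 and Cxcl12 below, had all been selected on this contrast. Selection alone can thus make their patterns alike.

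Nos1, the nitric oxide synthase of neurons, showed a larger difference on far fewer reads. Its listed transcript (ENSMUST00000138554) carries a mouse Ensembl accession and consists of 3 exons with 646 bases in all, spread over 5889 bases at chr12:39812521-39818409 of rn4 on the minus strand. Reads in other exons of Nos1 were not analysed here. It had 10 and 12 reads in fluoxetine samples 1 and 2 (NE of 0.0110 and 0.0138) and 42 and 25 reads in vehicle samples 1 and 2 (NE of 0.0464 and 0.0309). Both vehicle samples were above both fluoxetine samples, although the Poisson intervals of fluoxetine sample 2 (6.2 to 21 reads) and vehicle sample 2 (16.2 to 36.9 reads) overlapped. The vehicle to fluoxetine ratio at the library totals was 3.17 (1.93 to 5.39), and vehicle sample 1 over vehicle sample 2 was 1.5 (0.893 to 2.57). In normalized reads the latter was 1.7 (1.01 to 2.91), just beyond counting error. In normalized reads Nos1 stood at 10.3 ± 0.538 against 35.8 ± 13.1 (SD, n = 2). The log2 fold change from edgeR was -1.78 (standard error 0.54), with values from -2.03 to -1.35 when 1 sample was left out.

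Of 21 genes of nitric oxide and cGMP signalling, 1 (Nos1) was listed, so the other synthases, the guanylate cyclases and the cGMP-dependent kinases were not analysed here. Markers of interneurons, the cells in which Nos1 is strongest, were listed for 2 of 12 genes, and both had higher group means after fluoxetine. Of all listed transcripts, 48% were lower, so no shared direction is read from these 2. Sst, which encodes somatostatin, had an NE of 4.52 and 3.14 in the fluoxetine samples and 1.93 and 3.05 in the vehicle samples, and Tac1, which encodes substance P, had 10 and 27 reads against 1 and 10. For Tac1, fluoxetine sample 1 and vehicle sample 2 had the same number of reads, and the part of interneuron content in the Nos1 values was not tested. The genes with the pattern nearest to Nos1 were Ccne1 (0.16), Abcc8 (0.20) and Aloxe3 (0.22), which encode cyclin E1, a subunit of the ATP-sensitive potassium channel and a lipoxygenase. The 10 reads of Nos1 in fluoxetine sample 1 had a Poisson interval of 4.8 to 18.4, so the choice and order of these genes are uncertain. Ccne1 (ENSMUST00000128785) had 10.9 and 9.81 normalized reads in fluoxetine and 36.5 and 26.5 in vehicle.

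**Figure D2:**
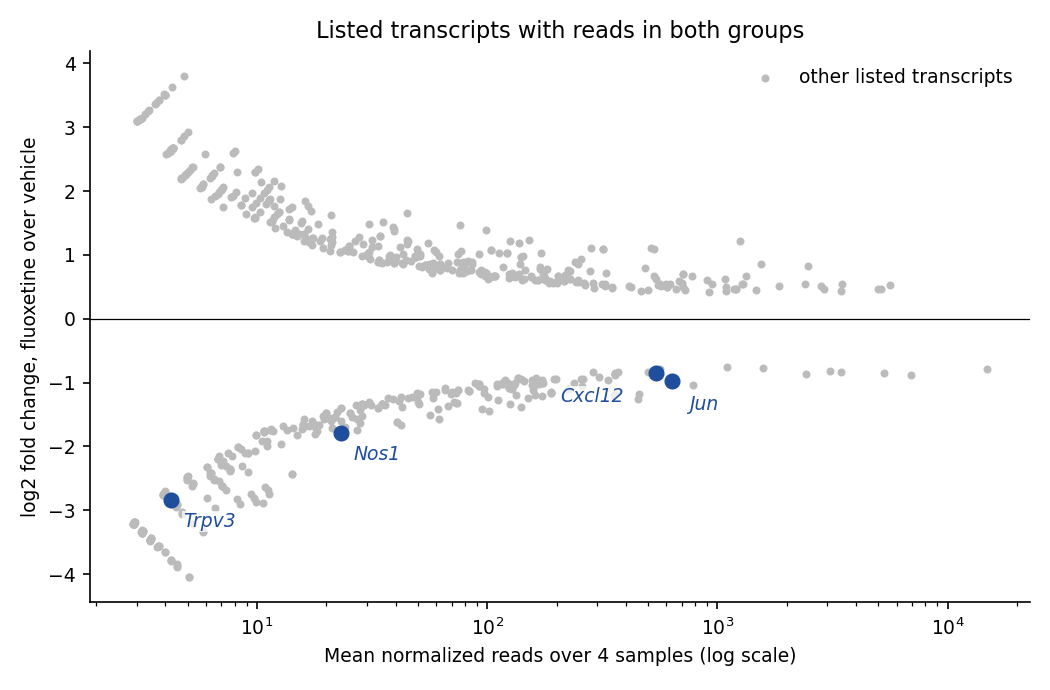
log2 fold change of fluoxetine over vehicle (y axis) against the mean normalized reads over the 4 samples (x axis, log scale) for the 705 listed transcripts with reads in both groups (grey), with 1 transcript each of Jun, Cxcl12, Nos1 and Trpv3 in blue. The table holds only selected transcripts, which leaves the space around 0 empty, and the genes with few reads, Trpv3 and Nos1, lie at larger fold changes than Cxcl12 and Jun, as the other lower transcripts do.

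Cxcl12, the chemokine, was set apart by a single sample. It has 2 listed transcripts on the plus strand of chromosome 4 of rn4, one of 4 exons and 441 bases at chr4:153503576-153511441 (ENSRNOT00000066670) and one of 3 exons and 347 bases at chr4:153503576-153508848 (ENSRNOT00000066212). The longer had 394 and 428 reads in fluoxetine and 403 and 899 in vehicle, and the shorter had 392 and 425 against 396 and 894. The pair differs in length by 94 bases and in reads by 2 to 7 per sample, so that it counts nearly the same reads and is no repeat measurement.

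Vehicle sample 1 did not stand above the fluoxetine samples for Cxcl12. By NE, the longer transcript had 0.635 and 0.718 in the fluoxetine samples, 0.652 in vehicle sample 1 and 1.63 in vehicle sample 2, so that the groups overlapped. In normalized reads the same samples had 392, 382, 433 and 955 and did not overlap, so the order of vehicle sample 1 and fluoxetine sample 2 depended on the scaling. At the library totals, vehicle sample 2 exceeded vehicle sample 1 by 2.5-fold (2.22 to 2.82), which is more than the 1.65-fold (1.51 to 1.8) between the groups. The mean in normalized reads was 387 ± 7.03 in fluoxetine and 694 ± 369 in vehicle (SD, n = 2), so that the vehicle samples had an SD larger than the gap between the means. The log2 fold change of -0.84 (standard error 0.56, edgeR) shrank to -0.09 when vehicle sample 2 was left out and went to -1.30 when vehicle sample 1 was.

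The hemoglobin genes moved in the same sample. Among all transcripts compared, those nearest to Cxcl12 were of Atp2b4 (0.16), a plasma membrane calcium pump, and of Hba-a2 (0.22) and Hbb (0.24), the hemoglobin chains of red blood cells. Hbb had 303 and 262 reads in fluoxetine and 315 and 886 in vehicle, and Hba-a2 had 321 and 267 against 336 and 850. Vehicle sample 2 was the high one for each of these genes, and vehicle sample 1 lay close to the fluoxetine samples. Together, Hbb and Hba-a2, the 2 listed of 4 red blood cell markers, had a summed NE of 0.757 and 0.668 in fluoxetine and of 0.794 and 2.36 in vehicle. Both hemoglobin genes were themselves listed as lower after fluoxetine. The part of blood or vessel content in the Cxcl12 values was not tested. Hemoglobin genes have near-identical copies, which makes their counts uncertain. Of 11 markers of endothelial and mural cells, which make Cxcl12, 0 were listed and none was analysed here. Of 14 chemokine and chemokine receptor genes, 1 (Cxcl12) was listed.

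**Figure D3:**
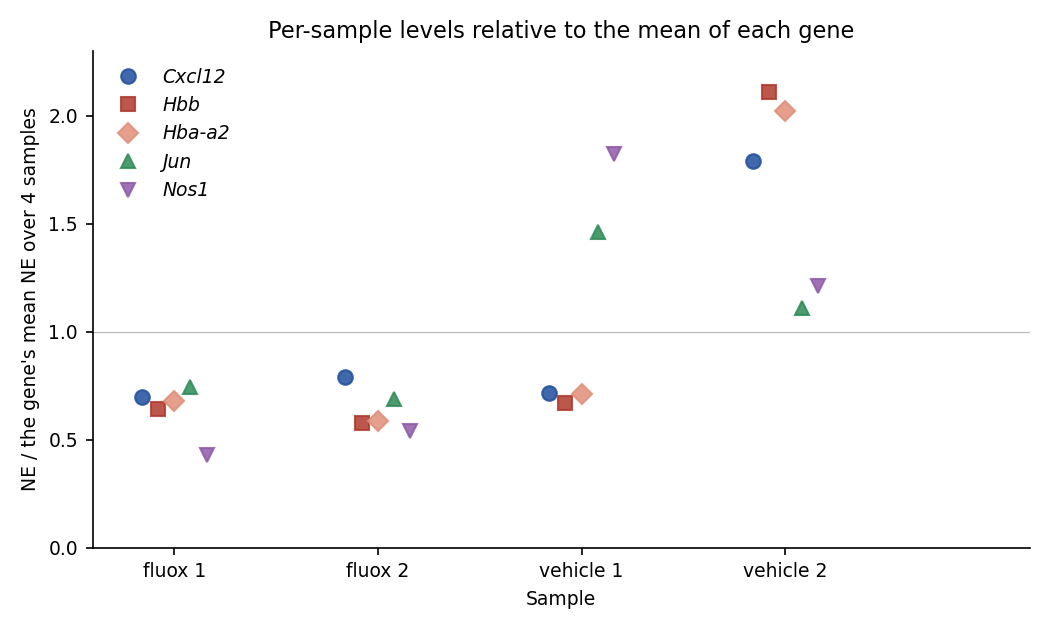
NE of Cxcl12, Hbb, Hba-a2, Jun and Nos1 in each sample, divided by the mean NE of the gene over the 4 samples (y axis, linear, 1 is the mean). Cxcl12, Hbb and Hba-a2 reach 1.79, 2.11 and 2.02 in vehicle sample 2 and stay below 1 in the other samples, whereas Jun and Nos1 are highest in vehicle sample 1, at 1.46 and 1.82.

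Trpv3, the warmth-activated channel, was close to the limit of detection. Its listed transcript (ENSBTAT00000052861) has a cow Ensembl accession and 4 exons with 581 bases in all at chr10:60169170-60171166 of rn4 on the plus strand. It had 1 read in each fluoxetine sample and 8 and 6 reads in vehicle samples 1 and 2 (NE of 0.00122, 0.00127, 0.00983 and 0.00825). The vehicle samples were both higher, yet the Poisson interval of a single read (0.0253 to 5.57) overlapped those of 8 reads (3.45 to 15.8) and 6 reads (2.2 to 13.1). The vehicle to fluoxetine ratio was 7.28 with an exact interval of 1.67 to 66. In the TRP channel group, 2 of 13 genes were listed, both lower after fluoxetine. Trpv3 had been chosen for being lower, and 48% of all listed transcripts were lower, so no shared direction is read from this. Trpm3, the other one, a cation channel of neurons and choroid plexus, had 12 and 11 reads against 31 and 29.

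Casp8, the initiator caspase, was read in the vehicle samples alone. Its transcript (NM_022277, 9 exons, 2003 bases, chr9:57389353-57437803 of rn4, plus strand) had 0 reads in both fluoxetine samples and 4 and 2 reads in vehicle samples 1 and 2 (NE of 0.00143 and 0.0008). A count of 0 over the fluoxetine group allows up to 3 reads in all, and against this floor Casp8 was at least 2.08-fold lower after fluoxetine at the library totals. The exact 95% counting interval of the vehicle to fluoxetine ratio reached lower, to 1.22. Without vehicle sample 1 both groups were at or under the floor and no fold can be given.

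Il1b, the cytokine, differed in 1 library only. It has 2 listed transcripts on the minus strand of chromosome 3, one of 7 exons and 1314 bases at chr3:116964422-116970867 (NM_031512) and one of 3 exons and 923 bases at chr3:116964422-116967218 (AK225003), and both hold the same counts. Fluoxetine samples 1 and 2 and vehicle sample 2 had 0 reads, and vehicle sample 1 had 6. The groups therefore overlapped, and without vehicle sample 1 no difference was left. The NE in vehicle sample 1 was 0.00464 for the shorter transcript and 0.00326 for the longer. In the group of interleukin-1 and NF-kB signalling, 2 of 21 genes were listed, and they differed in direction. Il1rl1, the receptor of interleukin-33, had 7 and 12 reads in fluoxetine and 0 and 3 in vehicle (NM_001025602). Of 14 markers of microglia, the main source of Il1b in brain, 0 were listed and none was analysed here.

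In normalized reads, 5 of the 6 genes had their higher fluoxetine sample under their lower vehicle sample, and 4 of 6 did at the library totals, where Cxcl12 joined Il1b among the genes that overlapped. This order held for 41.1% of all 830 listed transcripts, for 85.7% of the 398 listed as lower, and for 40.1% of all at the library totals. As the genes were chosen for being lower, nothing is read from these shares. Only 3 of the 6 genes had at least 20 reads over the 4 samples. The median log2 fold change of the 6 genes was -2.31, or -1.18 with Casp8 and Il1b at the floor of 3 reads, beside a median of 0.49 over all listed transcripts and -2.11 over those that were lower. At the library totals the median of all listed transcripts was higher by 0.12 on the log2 scale.

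**Figure D4:**
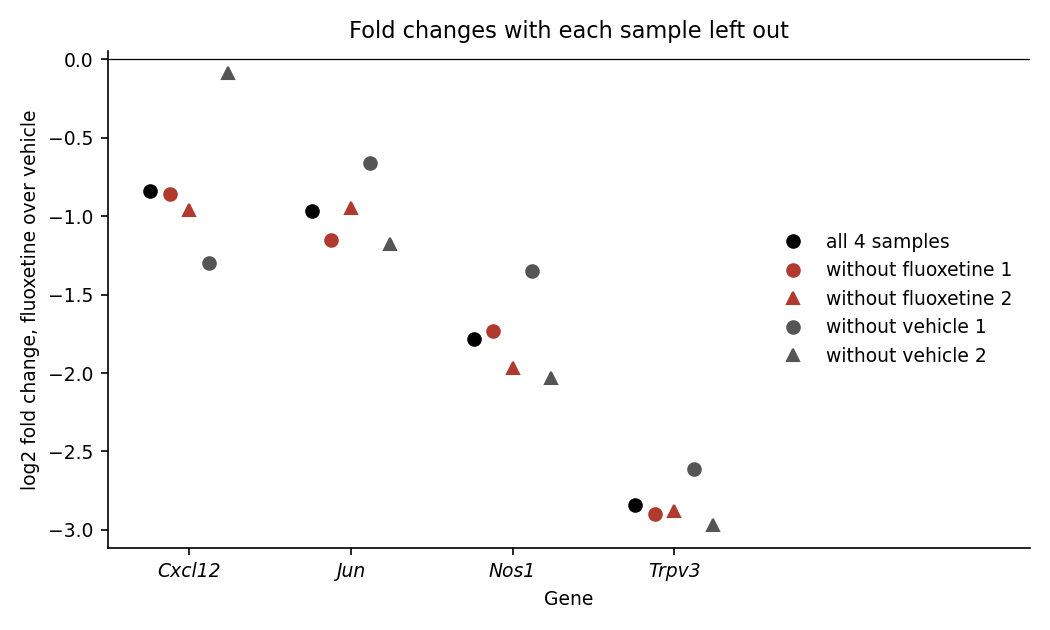
log2 fold change of fluoxetine over vehicle (y axis) for Cxcl12, Jun, Nos1 and Trpv3 with all 4 samples (black) and with each sample left out in turn (red for fluoxetine, grey for vehicle, circles for sample 1 and triangles for sample 2). The value of Cxcl12 goes from -0.84 to -0.09 without vehicle sample 2, while that of Jun stays between -1.18 and -0.66.

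The single high libraries differed between genes. Vehicle sample 1 was the highest sample for Jun, Nos1, Trpv3, Casp8 and Il1b, and vehicle sample 2 for Cxcl12. Prkcd, protein kinase C delta (ENSRNOT00000025858), which the study places under the response to temperature with some of these genes and which had been selected as lower in the same way, had 158 and 87 reads in fluoxetine and 215 and 276 in vehicle. Its highest sample was vehicle sample 2, as for Cxcl12.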

How the data were processed

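Reads of 36 bp were mapped by the authors with the Illumina Analysis Pipeline (rn4, up to 1 mismatch), and uniquely placed reads were counted over the exons of every transcript with Genomatix software. These counts were deposited without normalization, and a read can count for several transcripts. The sources used here do not give the use of strand in counting. NE was deposited beside them, a signal that the authors scaled by transcript length and library size. Only transcripts that passed the authors' DESeq p-value of 0.05 and fold change of 1.5 are listed, and the authors' own fold changes and p-values were not used. Of the 830 transcripts, 81 have no single gene identifier, and 222 carry an Ensembl accession of another species.

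The counts of all 830 transcripts were fitted in R 4.3.3 with the quasi-likelihood test of edgeR 4.0.16 (TMM scaling, no filter, treatment as the only term), with DESeq2 1.42.0 as an alternative. The steps were tested on simulated data with less spread between samples than was fitted here and without selection of transcripts. Only better-read transcripts were checked, so the test did not cover levels as low as those of Trpv3, Casp8 and Il1b. Library totals were derived from reads, length and NE of transcripts with more than 50 reads. Where 1 transcript stands for a gene, it is the one with the most reads, ties by accession. Intervals are exact (Poisson for reads, Clopper-Pearson for ratios, 95%), and a floor of 3 reads was used. Python 3.11.15, pandas 2.3.3, scipy 1.17.1 and matplotlib 3.10.9 were used. Samples came from separate pools of rats, and the spread is poorly known from 2 per group. The genes and the lists were chosen with earlier results of these data known. Named genes are the 6 genes, listed members of the gene lists, listed genes of the same terms, and for Jun, Nos1 and Cxcl12 the 3 nearest patterns. Some of these are not reported here.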

Additional observations from a re-analysis of the deposited data

How the results depend on the processing

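The number of genes with both fluoxetine samples below both vehicle samples was 5 and became 4 at DESeq2's size factors, with the DESeq2 fit, at the library totals and, with 4 genes left, under a filter of at least 10 reads. The median log2 fold change of -2.31 was -1.39 under that filter, which removes Casp8 and Il1b. It was -1.38 with a prior count of 2, which draws the log2 fold changes of genes with low counts toward 0, and -2.50 to -1.35 with 1 sample left out. The value of -1.35 is without vehicle sample 1, where Il1b has no value and Casp8 enters with a fitted value from 2 reads, under the floor. Alternative values were computed for the fold changes of the 4 genes with reads in both groups, with both transcripts of Cxcl12, and for the median. Of these 66 values, 58 moved by less than a spread, and no direction was reversed, in genes that had been chosen for this direction. The spread was the SD within groups for each transcript. For the median it was the SD of the median difference over the pairs of a fluoxetine and a vehicle sample. With the replicate block the median was -2.28 and the number of genes 5. The labels give the numbers 1 and 2 in both groups without saying that they pair the samples, and same-numbered samples deviated together (correlation across 364 transcripts 0.617). With the block, 0 transcripts passed an adjusted p under 0.05 and 231 an unadjusted p under 0.05. These counts, too, are over selected transcripts and give no error rate over all genes. Depth limits Trpv3, Casp8 and Il1b, for which single reads decide the values.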
